A study of Mus musculus with 81 samples.

Results

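Open chromatin was described at 7 genes of the LIF and STAT3 pathway: the receptor subunits Lifr and Il6st, the kinase Jak1, the transcription factor Stat3, and the pathway's targets Socs3, Pim1 and Gbx2. The genes were chosen by name, and all 7 were found among the 21887 protein-coding genes of the RefSeq gene table used (GRCm38.p6, the assembly behind mm10). A locus is the gene model with 10 kb on each side. Leukaemia inhibitory factor (LIF) binds a receptor made of LIFR and gp130, the product of Il6st, and the bound kinase JAK1 phosphorylates STAT3, which then enters the nucleus. In mouse embryonic stem cells this signal sustains naive self-renewal, and it falls away when cells move towards the epiblast. SOCS3 feeds back to inhibit the receptor and its kinases, PIM1 is a serine/threonine kinase, and GBX2 is a homeobox factor that can sustain self-renewal downstream of STAT3.

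In ATAC-seq a transposase tags accessible DNA. Repli-ATAC-seq keeps only DNA that took up EdU (20 µM for 10 min) while it was copied, taken at once (nascent) or 2 h after labelling with a 10 µM thymidine chase (mature). The unbound fraction gave the bulk signal. Wild-type 129/Ola embryonic stem (ES) cells were sampled at 0h, and 9h and 48h after induction towards epiblast-like cells (EpiLC). Their maintenance medium lists LIF with 3 µM Chir99021 and 1 µM PD0325901, the latter exchanged for 250 nM PD173074 for the 24 h before induction. The induction medium lists FGF2 at 10 ng/mL and Activin A at 20 ng/mL, with no LIF named. Mouse embryonic fibroblasts (MEF) of mixed Black6-129X1/SvJ background were heterozygous for Col1a1::tetOP-OKSM, R26-M2rtTA and Oct4GFP. All MEF groups received 2 µg/mL doxycycline, which switches on the OKSM factors, and the reprogramming medium lists LIF, serum and ascorbic acid. They were sampled at 6h, 12h and 36h, with a bulk list for the nascent and for the mature arm, and at 60h in the CellTrace Violet fractions Q1 to Q4, whose order of brightness the labels do not give. In a further experiment 5 µg/mL aphidicolin, a replication inhibitor, was added 4 h after induction for 10 h, beside untreated cells. LIF was therefore listed for every MEF group, and no group differed in LIF alone.

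The 81 samples form 27 groups of 3. Peaks came as 1 list per group in the time courses and the sorted cells (25 lists), so those values have no spread between replicates and no test. They are described beside the same measure over all peaks or loci. There were 137173 to 203188 peaks in a bulk list, 3222 to 27693 in a nascent list and 57762 to 73518 in a sorted fraction. Of the naive markers with a listed start, 5 of 5 had a start peak in ES cells at 0h and 2 of 5 in MEF at 6h, while fibroblast markers had 3 of 5 and 5 of 5. In bulk chromatin, fewer cells with an open site and weaker opening in each cell cannot be told apart.

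Lifr lies on chromosome 15 (7090610 to 7197489, plus strand) and Il6st on chromosome 13 (112464070 to 112506860, plus). Jak1 lies on chromosome 4 (101151974 to 101265282, minus), and both Stat3 (100886806 to 100939594) and Socs3 (117966079 to 117970336) on the minus strand of chromosome 11. Pim1 lies on chromosome 17 (29490785 to 29496111, plus) and Gbx2 on chromosome 1 (89927962 to 89931176, minus). The window of Stat3 reaches its neighbour Stat5a, that of Jak1 reaches Raver2 and that of Lifr reaches Egflam. That of Gbx2 reaches the protein-coding LOC102637806, so at these 4 genes a flanking site may belong to the neighbour. No exon annotation was used, so a site is given as at a start, inside the gene model or in a flank.

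Promoters are shown because each of the 7 genes had a start peak in every bulk list of both courses. RefSeq promoter windows (GRCm38.p6, 250 bases before to 50 after a listed start) gave 9 windows for the 7 genes. The STAT-type motif TTCNNNGAA, searched on both strands, occurred in 1 of the 7 genes, Socs3, and in 8.30% of all 32851 windows. It is shown for Socs3 with the match in capitals, as bases 164 to 136 before the start at chr11:117969502-117969530 on the minus strand. The listed start lies inside the longest gene model of Socs3.

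Socs3: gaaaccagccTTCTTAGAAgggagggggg

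The stricter form TTCCNGGAA (1.15% of windows) and the AP-1 type TGANTCA (7.81%) were in none of the 9 windows. The KLF-type CCNCNCCC was in 8 of the 9 windows, against 49.5% of all windows. The second Lifr window had none. Matches of this motif on either strand may overlap, and it is GC-rich. The Pim1 window with 9 matches and the Gbx2 window with 1 match are shown over the 250 bases before the start, with matches in capitals. They lie at chr17:29490535-29490784 on the plus strand and chr1:89931177-89931426 on the minus strand.

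Pim1: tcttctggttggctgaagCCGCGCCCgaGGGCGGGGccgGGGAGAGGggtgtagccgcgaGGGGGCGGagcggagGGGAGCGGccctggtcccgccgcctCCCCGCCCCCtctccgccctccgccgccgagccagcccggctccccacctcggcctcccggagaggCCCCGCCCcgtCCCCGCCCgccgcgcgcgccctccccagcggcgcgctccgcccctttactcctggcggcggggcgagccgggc
Gbx2: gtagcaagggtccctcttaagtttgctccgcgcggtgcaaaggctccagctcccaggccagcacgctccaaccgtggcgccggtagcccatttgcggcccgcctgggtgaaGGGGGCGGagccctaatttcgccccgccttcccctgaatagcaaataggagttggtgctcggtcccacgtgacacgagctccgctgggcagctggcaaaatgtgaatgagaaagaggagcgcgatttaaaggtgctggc

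These matches are letters in a window, not binding sites. GC content was 81.3% in the windows at the first listed starts of Lifr and Pim1 and 64.7% in Gbx2 and Jak1, against a median of 52.7% over all windows.

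The ES cell course asks how open chromatin at these genes differs between naive cells and cells on the way to EpiLC. Together the 7 loci had 73, 71 and 56 bulk peaks at 0h, 9h and 48h. From 0h to 48h, 4 loci held fewer peaks, 3 the same number and 0 more, where 36.4% of coding loci with a peak held fewer and 42.3% more. Of the 73 peaks at 0h, 32 had no peak at 48h (43.8%, Wilson 95% interval 33.0 to 55.2), against 38.9% of all 0h peaks. Of the 56 peaks at 48h, 15 had no 0h peak (26.8%), against 34.9% of all. The interval covers counting error only, and the background of 38.9% lies inside it.

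**Figure D1:**
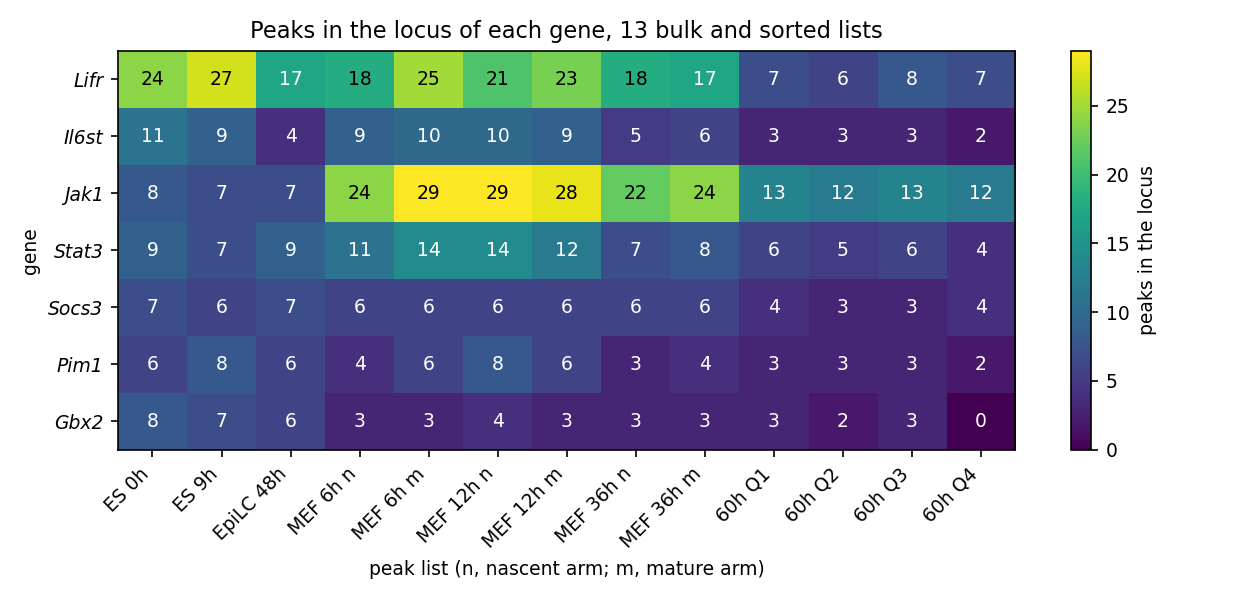
Number of peaks in the locus of each gene (rows) in 9 bulk and 4 sorted lists (columns), with n for the nascent and m for the mature arm; each list is 1 per group, so there are no error bars. Jak1 holds 7 or 8 peaks in the ES cell course and 22 to 29 in the MEF bulk lists, while Gbx2 holds 6 to 8 and then 3 or 4, with 0 in Q4.

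The receptor genes gave most of the difference. Lifr had 24, 27 and 17 peaks at 0h, 9h and 48h. Of its 24 peaks at 0h, 11 had none at 48h (45.8%, 27.9 to 64.9), against 38.9% of all 0h peaks. Il6st, which encodes the signalling subunit shared by the IL-6 family, held 11, 9 and 4 peaks, and 9 of its 11 peaks had none at 48h (81.8%, 52.3 to 94.9). The share of the locus covered by peaks was 11.2% at 0h and 4.72% at 48h for Lifr, and 10.8% and 2.83% for Il6st. For Lifr and Il6st, then, fewer peaks came with a smaller covered share. The covered share was also smaller at 48h at every other member. It was 3.65% at 0h and 1.97% at 48h for Jak1, 6.41% and 4.56% for Stat3, and 19.7% and 13.6% for Socs3. Pim1 had 14.3% and 12.4%, and Gbx2 24.9% and 18.4%. The change in covered share over all loci was not compared.

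At Lifr, 6 sites inside the gene model had a peak at 0h and 9h, none at 48h and none in any MEF list. Their extents over all lists were 7107615 to 7108351, 7109721 to 7110128, 7145057 to 7145484, 7159793 to 7160686, 7167468 to 7168405 and 7180501 to 7180936 on chromosome 15. The highest-scoring Lifr peak at 0h lay upstream of the gene model, at 7081739 to 7082450, with a score by the authors' caller that only 0.785% of that list reached. That site had a peak at 0h, 9h and 48h in bulk ES cells and in no MEF list. With scores of at least 100 the Lifr counts were 24 at 0h and 11 at 48h. The Lifr start at 7129572 had a peak in all 13 bulk and sorted lists.

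At Il6st the sites centred 8.5, 17.8 and 37.2 kb inside the gene (chromosome 13, 112472260 to 112472879, 112481611 to 112482158 and 112500733 to 112501779) followed the same pattern. A further site 1.6 kb upstream (112462131 to 112462874), the highest-scoring Il6st peak at 0h, did too. The gene start and a site 45.6 kb downstream of it (112509402 to 112509954) were the only Il6st sites found in all 13 lists. Across the 7 loci, 14 of 157 sites were open at 0h and 9h only, and 10 of these lay at Lifr or Il6st, which held 50 and 20 of the 157. The share of such sites over all loci was not counted.

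Jak1 and Stat3 kept similar numbers, with 8, 7 and 7 peaks for Jak1 and 9, 7 and 9 for Stat3 at 0h, 9h and 48h. Jak1 shared 4 of its 8 peaks at 0h with 48h. The other 50% (21.5 to 78.5) had no 48h peak, against 38.9% of all 0h peaks. Stat3 shared 7 of 9, including its start and the sites 45.7 and 34.3 kb inside the gene (chromosome 11, 100893260 to 100894382 and 100904632 to 100905890).

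Among the targets, Socs3 held 7, 6 and 7 peaks, Pim1 6, 8 and 6, and Gbx2 8, 7 and 6. At 48h Gbx2 had no peak that was absent at 0h, and it shared 6 of its 8 peaks at 0h. The strongest Gbx2 peak at 0h, 4.8 kb upstream (chromosome 1, 89935506 to 89936371), was present at 0h and 48h but not at 9h. Socs3 shared 5 of 7 peaks and Pim1 4 of 6.

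MEF showed a different set of sites at the same genes. Of the 73 ES peaks at 0h, 48 had no bulk peak in MEF at 6h (65.8%, 54.3 to 75.6), against 66.6% of all ES peaks. Of 157 sites over the 13 lists, 55 were seen only in the ES cell course, 63 only in MEF and 39 in both. The same split was not made for sites over all loci.

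Jak1 differed most in number. Of its 24 bulk peaks in MEF at 6h, 21 had no ES peak at 0h (87.5%, 69.0 to 95.7), against 70.5% of all 6h peaks. Over the bulk and sorted lists, 27 of its 38 sites were seen only in MEF, and 25 of these lay inside the gene model. At 13 of the 27, flanks included, a peak was present in all 6 bulk lists of MEF, and at 6 of those also in all 4 sorted fractions. The strongest, 62.5 kb inside the gene (chromosome 4, 101202339 to 101203188), held the highest-scoring Jak1 peak at 6h and at 36h, reached by 0.732% and 0.768% of those lists. In the ES cell course this site had no peak, and the start held the top score instead.

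Gbx2 was the opposite case, with 0 sites seen only in MEF. Its 3 MEF peaks at 6h and at 36h lay at the start, 4.0 kb downstream of it and 9.1 kb upstream, all also open in ES cells. Socs3 held the same 6 sites in each of the 6 MEF bulk lists, of which 4 were shared with ES cells: the start, 3.5 and 5.6 kb downstream and 6.7 kb upstream. The start, the 5.6 kb and the 6.7 kb site of Socs3 were open in all 13 lists.

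**Figure D2:**
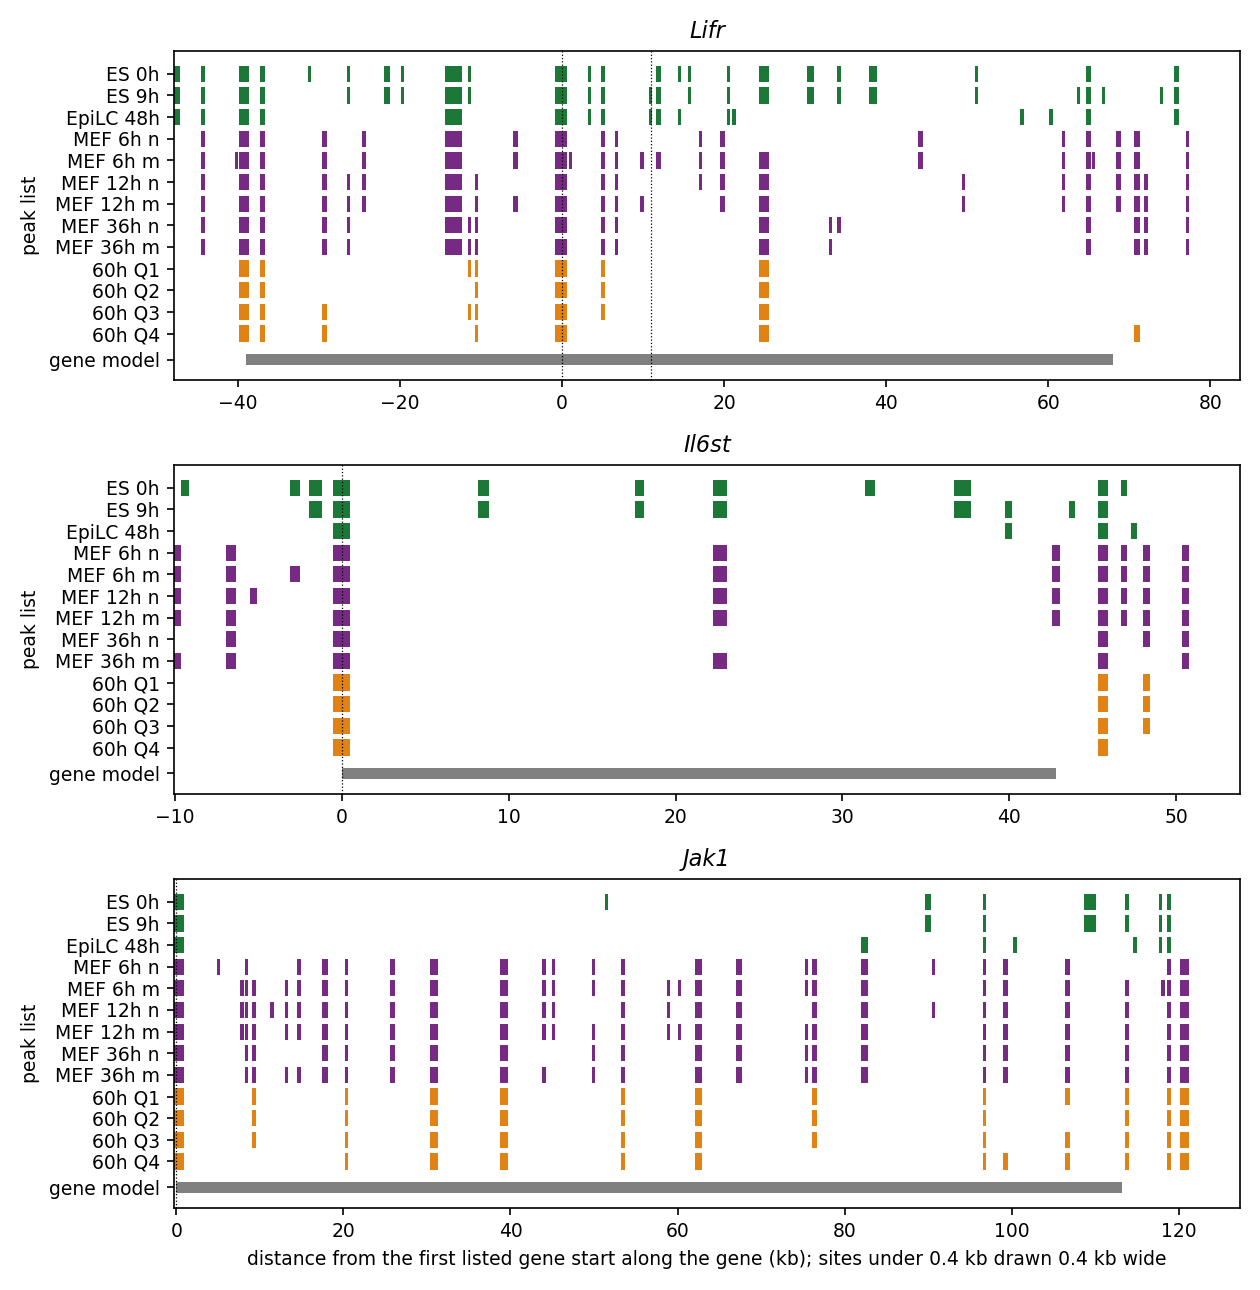
Sites at Lifr, Il6st and Jak1 against distance from the listed start along the gene (kb, dotted lines mark listed starts, grey bar the gene model); a bar in a row means that list has a peak at the site, drawn at the site's extent over all lists. Green rows are the ES cell course, purple MEF bulk and orange the sorted fractions; the 6 Lifr sites open at 0h and 9h only, and the 25 MEF sites inside Jak1, can be read down the columns.

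During reprogramming the 7 loci held 75, 92 and 64 peaks at 6h, 12h and 36h in bulk lists of the nascent arm, and 93, 87 and 68 in those of the mature arm. The arms thus differ in order between 6h and 12h, and in both the 36h list is the smallest. From 6h to 36h, 4 loci held fewer peaks and 0 more in the nascent arm, where 51.5% of coding loci held fewer and 21.7% more. With both lists cut by score to 137173 peaks, Jak1 held 19 at 6h and 22 at 36h and Lifr 12 and 18, so the count of 0 rests on list length. In the mature arm 5 held fewer and 0 more, against 60.6% and 13.6%. Of the 75 peaks at 6h, 22 had none at 36h (29.3%, 20.2 to 40.4), against 38.5% of all. Of the 64 peaks at 36h, 11 had none at 6h (17.2%), against 20.6% of all.

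By gene, Lifr held 18, 21 and 18 peaks in the nascent arm, Il6st 9, 10 and 5, Jak1 24, 29 and 22, and Stat3 11, 14 and 7. Pim1 held 4, 8 and 3, Gbx2 3, 4 and 3, and Socs3 6 at each time. At Lifr, 8 of 18 peaks at 6h had none at 36h, and 8 of 18 at 36h had none at 6h. At 2 Lifr sites open in ES cells at 0h, the first MEF peak came at 36h: 11.4 kb before the main start (7118002 to 7118264) and 23.2 kb inside the gene (7163513 to 7163948). The former was also present in Q1 and Q3, and the latter in the nascent arm only.

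In the sorted fractions the 7 loci held 39, 34, 39 and 31 peaks in Q1 to Q4. Jak1 had 12 or 13 peaks in each fraction and Lifr 6 to 8. Gbx2 had 3, 2, 3 and 0 peaks. Its start was open in Q1, Q2 and Q3 and had no peak in Q4, the shortest of the 4 lists (57762 peaks), and from Q1 to Q4 49.3% of coding loci held fewer peaks and 11.7% more. Of all peaks in Q1, 30.5% had none in Q4.

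The nascent and mature lists ask how soon after the fork these sites are open. At 0h, 12 of 73 bulk peaks had a nascent peak (16.4%, 9.66 to 26.6), against 12.2% of all bulk peaks. The shares were 18.3% at 9h (11.7% of all), 21.4% at 48h (17.4%), 2.67% in MEF at 6h (1.72%), 16.3% at 12h (10.3%) and 18.8% at 36h (10.7%). With a mature peak they were 53.4%, 66.2%, 53.6%, 7.53%, 41.4% and 30.9% in the same order, against 42.4%, 59.3%, 47.8%, 6.91%, 34.5% and 26.3% of all. The share at the 7 loci was above that of all peaks in each of the 12 comparisons, and the background lay outside the counting interval only for nascent peaks in MEF at 36h (lower bound 11.1%). With paired lists brought to equal length by score, it was above in 10 of the 12, the exceptions being mature peaks in MEF at 6h (60% against 61.4%) and 36h (79.2% against 80.2%). The 6h lists were short, with 3222 nascent and 14281 mature peaks.

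**Figure D3:**
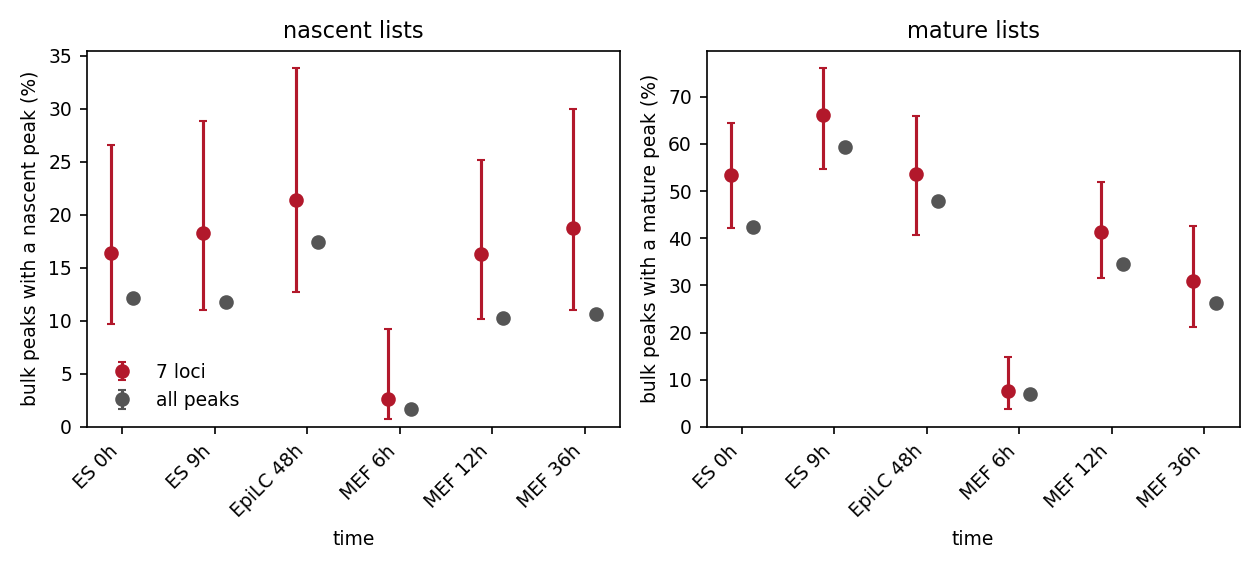
Share of bulk peaks (%) with an overlapping nascent (left) or mature (right) peak at each time, for the 7 loci (red) and for all peaks (grey), with Wilson 95% intervals for counting error; for all peaks they are smaller than the points. The red points lie above the grey at every time, and both are lowest in MEF at 6h.

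At 0h all 7 genes had a nascent peak at a start, as at 9h, 48h, 12h and 36h, and at 6h Stat3 alone did. Of the bulk peaks at starts in the 7 windows, 7 of 9 had a nascent peak at 0h (63.8% of all bulk peaks at starts), 8 of 11 at 9h (61.4%) and 7 of 9 at 48h (74.1%). In MEF 1 of 9 did at 6h (13.2%), 7 of 10 at 12h (62.6%) and 8 of 9 at 36h (64.7%). Away from starts, 5 of 64 did at 0h (7.10% of all), 5 of 60 at 9h (6.85%) and 5 of 47 at 48h (11.6%). In MEF 1 of 66 did at 6h (0.818%), 8 of 82 at 12h (6.46%) and 4 of 55 at 36h (5.21%). At starts the members were above the share of all peaks at 5 of 6 times, with 6h below it, and away from starts also at 5 of 6, with 48h below it. For mature peaks at starts they were below it at 48h (7 of 9, against 88.4%) and above it at the other times. Away from starts the mature share was below in MEF at 6h (1 of 84, against 4.69%) and 36h (12 of 59, against 21.1%), and above otherwise.

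Away from starts, the sites with a nascent peak in ES cells at 0h were the upstream and the 13.4 kb Lifr site (7081888 to 7082254 and 7115424 to 7115930), the Gbx2 site 9.1 kb upstream (89940174 to 89940633), and the downstream and upstream Socs3 sites. Gbx2's upstream site was nascent at 0h, 9h and 48h and at no MEF time. In MEF, Jak1 held 4 of the 8 at 12h. Its 62.5 kb site had a nascent peak at 6h, 12h and 36h, the 39.2 kb site at 12h and 36h, and the 53.4 kb and the 120.7 kb downstream site at 12h. Stat3 had nascent peaks 26.7 and 45.7 kb inside the gene at 12h, and the 45.7 kb site also had one at 48h of the ES cell course. The nascent lists differ in length, and no difference between the cell types was tested. The Socs3 sites 5.6 kb downstream and 6.7 kb upstream were nascent at 12h and 36h as in ES cells at 0h.

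The aphidicolin experiment asks what happens to accessibility when replication is blocked early in reprogramming. It has raw counts over regions in 3 untreated and 3 aphidicolin libraries (called a, b and c), with totals of 41183769 to 49440524 and 55158844 to 78677381 counts. Values are log2 CPM, which are counts scaled to library size, and tests are edgeR's quasi-likelihood test adjusted by Benjamini-Hochberg over all 138994 regions or 18144 loci tested. Of the 63 regions in the 7 loci, all of which passed the filter on low counts, 22 were lower and 4 higher with aphidicolin. Over all regions 17.9% were lower and 18.0% higher. The median log2 fold change was -0.16 over the 63 regions and 0.02 over all. When library totals replaced TMM scaling, 10 regions were lower and 15 higher, with the median of all regions at 0.18, so the balance of directions rests on the scaling.

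Across all regions the strongest were lower with aphidicolin: the median was -0.32 in the 10% with the highest CPM and 0.37 in the 10% with the lowest. Of the 63 regions, 11 fell in the former. At gene starts, where 50.0% of all regions were lower and 3.75% higher, 7 of 9 member regions were lower and 0 higher. With offsets that follow region strength 2 of these 9 were lower, the 5' Lifr region and the second Pim1 start region. The start calls of Il6st, Jak1, Stat3, Socs3 and the main Pim1 start were then lost (log2 fold changes of -0.08, -0.0038, -0.11, -0.06 and -0.05), as was that of the Jak1 site 62.5 kb inside the gene (-0.11). When a fold of 1.2 was tested, 3 of the 9 were lower, at Stat3, Socs3 and the second Pim1 start region.

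Of the 63 regions, 31 overlapped an ES bulk peak at 0h. Of these 15 were lower and 2 higher, where 30.2% and 7.53% of all such regions were. Of the 32 without an ES peak, 7 were lower and 2 higher, against 9.77% and 25.0%.

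**Figure D4:**
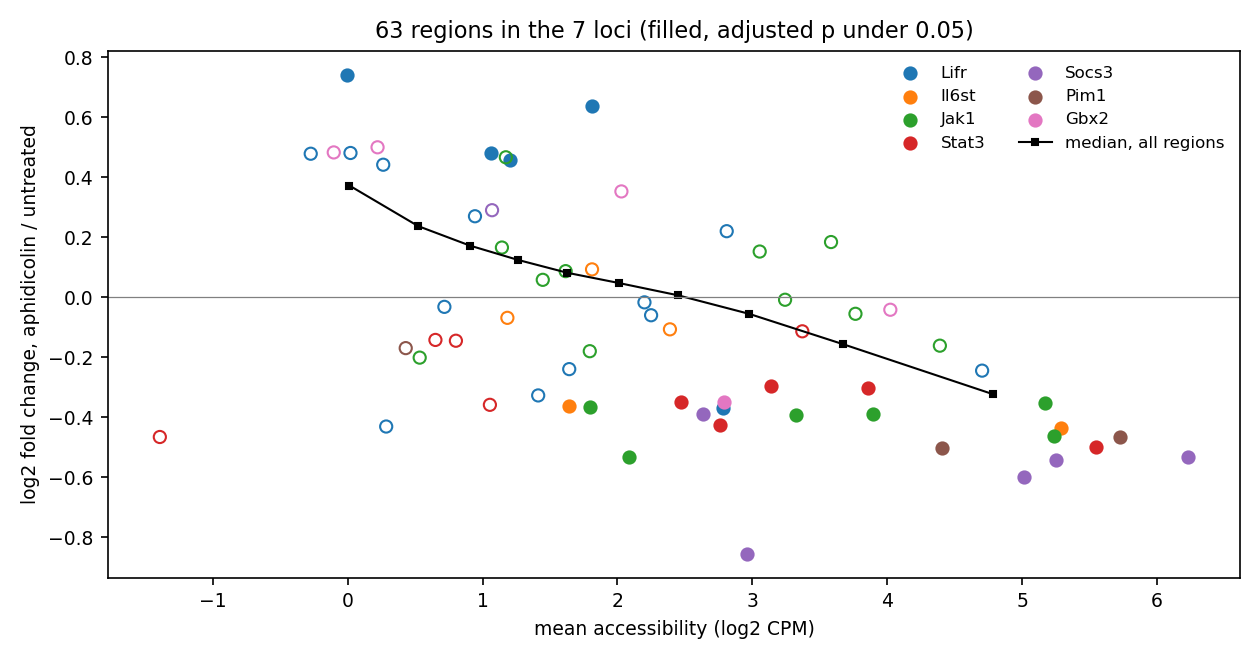
Log2 fold change (aphidicolin over untreated, y) against mean accessibility (log2 CPM, x) for the 63 regions in the 7 loci, coloured by gene and filled where the adjusted p was under 0.05; the black line joins the medians of all regions in 10 classes of equal size. The line runs from 0.37 to -0.32; the Socs3 region 3.5 kb downstream of the start has the lowest fold change, -0.86, and 4 called Lifr regions lie above 0.

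Socs3 had the largest difference of the 7. Its start region (chromosome 11, 117968340 to 117970141) read 6.54, 6.45 and 6.44 log2 CPM untreated and 6.02, 5.89 and 5.92 with aphidicolin. Every untreated library was above every treated one, and the log2 fold change was -0.53 ± 0.08 (SE, edgeR adjusted p = 0.000142). The region 3.5 kb downstream of the start (117965765 to 117965905) read 3.33, 3.26 and 3.44 against 2.55, 2.47 and 2.45. Its change of -0.86 ± 0.09 (edgeR adjusted p = 3.48e-05) was the largest at any member, and it was called under each alternative run, at -0.70 to -0.89. In all, 5 of 6 Socs3 regions were lower, against 17.9% of all regions. The groups did not overlap at any of the 6, as at 46.6% of all regions.

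Pim1 and the signalling genes followed at their starts. The main Pim1 start (29490085 to 29491408) read 6.16, 5.92 and 5.71 untreated and 5.58, 5.39 and 5.44 with aphidicolin, a change of -0.47 ± 0.10 (edgeR adjusted p = 0.00186). The groups did not overlap there, nor at the second Pim1 start region (29492588 to 29492922), which changed by -0.50 ± 0.09 (edgeR adjusted p = 0.000562). The Stat3 start (100939060 to 100940019) read 5.77, 5.82 and 5.74 against 5.38, 5.21 and 5.24, a change of -0.50 ± 0.08 (edgeR adjusted p = 0.000253). The Il6st start (112463639 to 112464566) read 5.67, 5.45 and 5.34 against 5.17, 5.02 and 4.98, and the Jak1 start (101264399 to 101265472) 5.54, 5.31 and 5.13 against 5.07, 4.93 and 4.96. Both had groups that did not overlap and were lower, by -0.44 ± 0.09 and -0.35 ± 0.09 (edgeR adjusted p = 0.00171 and 0.00817).

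At the main Lifr, Il6st, Jak1 and main Pim1 starts untreated library a was highest and c lowest of the untreated, and the aphidicolin libraries lay closer together. Without aphidicolin library b, or with library totals, the Jak1 start was no longer called (-0.32 and -0.19, edgeR adjusted p = 0.056 and 0.0653).

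The MEF-only Jak1 site 62.5 kb inside the gene (101202382 to 101203094) was as accessible as the start. It read 5.39, 5.49 and 5.47 untreated and 4.92, 5.06 and 4.97 with aphidicolin, with no overlap and a change of -0.46 ± 0.08 (edgeR adjusted p = 0.000392). The most changed Jak1 region (101151297 to 101151538) lies in the downstream flank and inside the gene model of Raver2, so it may belong to that gene. It changed by -0.53 ± 0.15 (edgeR adjusted p = 0.00956), its groups overlapped, and without untreated library b or with library totals it was not called (-0.40 and -0.38, edgeR adjusted p = 0.0904 and 0.0643). In all, 6 of 17 Jak1 regions and 5 of 10 Stat3 regions were lower and 0 higher, beside 17.9% lower and 18.0% higher over all regions.

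**Figure D5:**
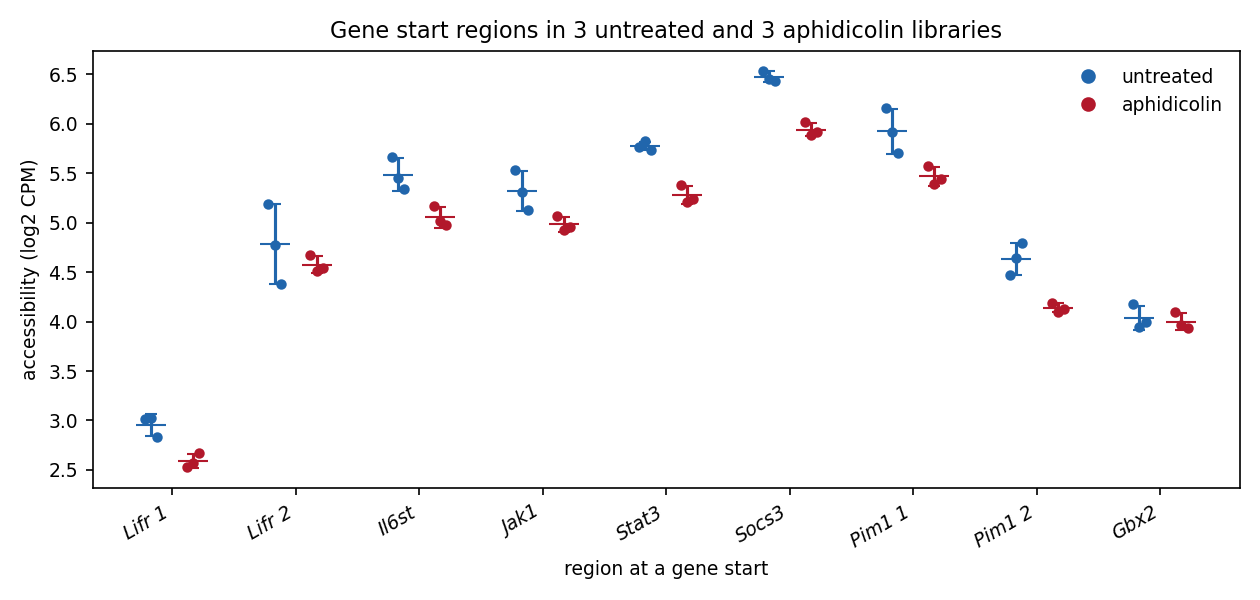
Accessibility (log2 CPM, y) of the 9 regions at starts of the 7 genes in 3 untreated (blue) and 3 aphidicolin (red) libraries; points are libraries, bars the mean and SD. Groups do not overlap at 7 of the 9 regions, against 55.8% of all regions at gene starts, and they overlap at the main Lifr start (Lifr 2) and at Gbx2.

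Gbx2 and Lifr were the exceptions. The Gbx2 start (89930085 to 89931550) read 4.18, 3.95 and 3.99 untreated and 4.10, 3.97 and 3.93 with aphidicolin. The groups overlapped, and the change of -0.04 ± 0.09 was not called (edgeR adjusted p = 0.741). The Gbx2 upstream region (89940374 to 89940677) was lower by -0.35 ± 0.11 (edgeR adjusted p = 0.0199), a call lost without untreated library b, aphidicolin b or aphidicolin c (edgeR adjusted p = 0.0707, 0.131 and 0.0886). It was also lost with library totals (-0.19, edgeR adjusted p = 0.171) and with offsets that follow strength (-0.32, edgeR adjusted p = 0.0502).

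The main Lifr start (7129176 to 7130025) read 5.19, 4.78 and 4.38 untreated and 4.68, 4.51 and 4.54 with aphidicolin, so the untreated libraries spanned the treated ones. The change of -0.24 ± 0.13 was not called (edgeR adjusted p = 0.163), and without untreated library c it was -0.41 and called (edgeR adjusted p = 0.00063). With a replicate block taken from the column numbers, this start was called lower too. The start at the 5' end of the gene model (7090323 to 7090634) was lower by -0.37 ± 0.10 (edgeR adjusted p = 0.00733). With library totals it was not called (-0.21, edgeR adjusted p = 0.0998).

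Lifr also held the 4 called increases, all inside the gene model, among its 17 regions, where 18.0% of all regions were higher. Of the 63 regions, 1 was called higher without untreated library b and 2 with offsets that follow strength. With library totals 15 were. The region 13.7 kb before the main start (7115748 to 7115930) was faint. It read -0.35, -0.80 and -0.38 untreated and 0.27, 0.43 and -0.06 with aphidicolin, a change of 0.74 ± 0.22 (edgeR adjusted p = 0.0145). The call was lost without untreated library b or aphidicolin b (edgeR adjusted p = 0.0711 and 0.095) and with offsets that follow strength (0.314). It is among the 10% of regions with the lowest CPM, whose median change was 0.37. The most clearly called of the 4 (7149367 to 7149550) changed by 0.64 ± 0.13 (edgeR adjusted p = 0.0018).

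Summed over each locus, 5 of 7 members were lower and 0 higher, where 55.6% of the 18144 loci were lower and 9.17% higher. The groups did not overlap at those 5, against 68.9% of all loci. The median of all loci was -0.20, so each change is also given relative to it. Socs3 changed by -0.55 ± 0.04 (-0.35 relative to the median of all loci, edgeR adjusted p = 3.20e-05), Pim1 by -0.47 ± 0.07 (-0.28, edgeR adjusted p = 0.00034) and Stat3 by -0.38 ± 0.05 (-0.19, edgeR adjusted p = 0.000194). Il6st changed by -0.35 ± 0.07 (-0.15, edgeR adjusted p = 0.00286) and Jak1 by -0.23 ± 0.03 (-0.04, edgeR adjusted p = 0.000181). Lifr (-0.05 ± 0.08, edgeR adjusted p = 0.617) and Gbx2 (-0.02 ± 0.09, edgeR adjusted p = 0.844) were not called and lay 0.15 and 0.17 above that median.

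Scaling decided 3 of these 7 loci. Jak1 was not called with library totals or DESeq2 (-0.08 and -0.04) nor with offsets that follow strength (0.0091), and those offsets called Lifr higher at 0.22 (edgeR adjusted p = 0.00294). DESeq2's Wald test with its own size factors, which moved the median of all loci to 0.00, called Lifr higher at 0.15 and Gbx2 higher at 0.18 (DESeq2 adjusted p = 0.00763 and 0.0272). Socs3, Pim1, Stat3 and Il6st were called lower under each of the scalings run.

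Peaks called in single libraries were more numerous with aphidicolin. The 7 loci held 58, 57 and 55 peaks in untreated libraries 1 to 3 as numbered in the labels, and 65, 74 and 66 with aphidicolin, with no overlap. The ratio of the means was 1.21, against 1.26 for the whole lists, which held 116939 to 129546 and 148292 to 163947 peaks. The lengths of the whole lists thus did not overlap either, and how many coding loci separate the groups by peak number was not counted. Lifr held 15, 14 and 12 untreated and 17, 19 and 18 treated, Stat3 9 in each and 10, 11 and 11, and Gbx2 4, 3 and 3 and then 5, 6 and 5. The groups overlapped at Il6st (5, 5 and 4 against 4, 7 and 5), Jak1 (15, 16 and 19 against 20, 22 and 18), Socs3 (7, 6 and 6 against 6 in each) and Pim1 (3, 4 and 2 against 3 in each). The aphidicolin libraries had more reads in the counted regions, and the part of depth in these numbers was not tested.

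The rest of the pathway was read from a list of 52 genes in 6 roles. Stat5a, on this list, lies beside the member Stat3, so their windows overlap and can hold the same sites. From 0h to 48h, 16 of the 52 loci held fewer peaks and 27 more, a median of 1 more peak, against 36.4% and 42.3% of coding loci. Among the largest differences were Tfcp2l1, a naive factor and STAT3 target, with 17 peaks at 0h and 7 at 48h, and Kdm3a, a histone demethylase gene, with 11 and 3. Ptpn2, a phosphatase gene, held 11 and 5. Cntfr, the receptor for ciliary neurotrophic factor, held 10 and 17.

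From 6h to 36h of the nascent arm, 28 of 52 held fewer peaks (53.8%) and 11 more (21.2%), near the 51.5% and 21.7% of coding loci. Stat5b (18 and 11) and the adaptor gene Gab1 (27 and 20) differed most, and smaller differences included Lif itself (11 and 7), Cntfr (10 and 6) and Ptpn2 (10 and 6).

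With aphidicolin, 40 of the 52 loci were lower and 0 higher by edgeR, where 55.6% of all loci were lower and 9.17% higher. The median was -0.30, against -0.20 over all loci. These counts are for TMM scaling alone and were not repeated for this list under the other scalings, which changed calls among the members. By role, 4 of 7 ligands, 4 of 5 receptors, 6 of 9 kinases and STATs, 12 of 12 inhibitors and phosphatases, 3 of 5 side branches and 11 of 14 targets were lower. The smallest p-values were at Il6ra, the IL-6 receptor (-0.41 ± 0.03), Sbno2, a STAT3 target (-0.51 ± 0.04), Akt1 (-0.48 ± 0.05), Ptpn6 (-0.54 ± 0.05), Tyk2 (-0.48 ± 0.05), Stat6 (-0.39 ± 0.04), Klf4 (-0.47 ± 0.05) and Mcl1 (-0.29 ± 0.04), with edgeR adjusted p from 3.03e-05 to 0.000187. Klf4 is also part of the OKSM cassette, and reads from the cassette could be counted there. No difference between the members and this list was tested.

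Likeness between loci was described by Pearson's r of the covered share of the locus, as log2(share + 0.01) less the median of each list, over 13 bulk and sorted lists and 19287 genes. These lists share cells and arms, and no p is given. Among the members Jak1 and Stat3 were most alike (r = 0.92), followed by the receptor genes Lifr and Il6st (0.71), while Jak1 and Gbx2 were most unlike (-0.65). Of other genes, Lifr was most like Milr1, Ncoa2 and Casq2 (0.94 to 0.95), and Il6st most like Kdm3a, Pank1 and Ubac2 (0.94 to 0.96). Jak1 was most like Camk2d, Aopep and Atxn1 (0.99 to 1.00), Stat3 most like Tll1, Fyb and Ppp1r1c (0.98 in each), and Socs3 most like Actr10, Tmem134 and Eid2b (0.99 to 1.00). Gbx2 was most like Wnt3, Npr1 and Foxa3 (0.95 in each). Pim1 had no close match, with Trim2 at 0.83 and Fubp1 and Zfp457 at 0.70.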

How the data were processed

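Peak lists hold positions and a score that the authors' peak caller gave each peak. Peak names in the files show merged replicates for the reprogramming lists and a consensus for the sorted ones. Bulk lists of the nascent arm were assigned by name and elimination. The tools named per the submitters' processing notes are MACS2 2.2.0, Bowtie2 2.2.5, bedtools 2.26.0, cutadapt 2.2.0 and SAMtools 1.4.1, with the build mm10. Not given in the sources used here are how ES lists were pooled and which counter was used.

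The authors deposited raw counts over 139000 regions for 6 libraries, whose column numbers no source ties to samples. The libraries are therefore called a, b and c in the order of those numbers. Counts were tested with edgeR 4.0.16 (glmQLFTest, two-sided, TMM factors, filterByExpr, threshold 0.05), checked on simulated data. Locus counts are sums over regions in the locus, scaled with the factors of the region table. DESeq2 1.42.0 was an alternative. Log2 CPM used a prior count of 1. Peaks were shared when overlapping by at least 1 bp, and intervals are Wilson 95%. The labels do not say whether replicates were separate cultures, so the p-values may reflect technical spread alone. Shared replicate numbers were checked for pairing, which was not settled, and the main fit used no replicate block.

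The members, gene lists, tests and alternatives were chosen with earlier results of these data known. Named were all members with their start, most accessible and most changed called regions, 8 pathway loci by p, 5 per course by peak number (ties kept) and 3 like genes each. An item that this rule names among the pathway loci is not reported here.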

Additional observations from a re-analysis of the deposited data

How the results depend on the processing

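Of the repeats of the main counts and shares, 101 stayed close to the main value and 20 moved. Of those for single genes and regions, 375 were unchanged, 30 lost the call, 2 gained it, 6 turned direction and 6 moved. Unchanged means the same call or, for peak numbers, a difference close to the main one. A value called in neither fit may differ in sign and still count as unchanged. Called regions numbered 26 of 63 (17 to 30 when a library was left out, lowest without untreated or aphidicolin library b) and 8 when a fold of 1.2 was tested. Called loci numbered 5 of 7, and 3 at that fold. Under the other scalings 25 (library totals, 15 higher and 10 lower, of which 14 were among the 26), 18 (strength-following offsets, 13 among the 26) and 23 regions (DESeq2) were called. At the locus level Lifr moved to 0.22 with strength-following offsets and 0.15 with DESeq2, Jak1 to 0.0091 with those offsets, and Gbx2 to 0.18 with DESeq2. Deviations of same-numbered columns had r of 0.26, 0.012 and 0.152, and those of other pairs -0.247 to 0.134. Whether the numbers pair the samples was therefore not settled. With a replicate block 29 regions and 5 loci were called, all 26 regions among them, and the main Lifr start was called (-0.21).

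The share of 36h peaks without a 6h peak was 7.35% in the mature arm. With scores of at least 100, nascent peaks covered 0% in MEF at 6h, and mature peaks 41.2% in ES cells at 0h and 3.41% in MEF at 6h. With each pair of lists cut by score to the shorter length, the shares with a nascent peak were 90%, 72.7%, 75%, 100%, 81.3% and 76.9% from ES cells at 0h to MEF at 36h. Those with a mature peak were 86.1%, 87.5%, 89.7%, 60%, 90.3% and 79.2%. The cut leaves 2 to 16 and 10 to 40 bulk peaks at these loci. With lists of equal length Jak1 held 3 more peaks at 36h than at 6h, and Lifr 6 more. The difference in Il6st peaks per library (aphidicolin less untreated) was -0.167 to 1.33 when a library was left out, the lowest without aphidicolin library 2. Peak lists carry no read depth, so a site without a peak was not detectable at its list's depth.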
